A study of Mus musculus with 9 samples.

Results

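Oxidative phosphorylation genes are those whose proteins form the respiratory chain and ATP synthase of the inner mitochondrial membrane. Complex I takes electrons from NADH, complex II takes them from succinate, complex III passes them on through cytochrome c, and complex IV hands them to oxygen. Complexes I, III and IV pump protons, and complex V, the ATP synthase, uses the returning protons to make ATP. Most subunits are encoded in the nucleus and a few core subunits in mitochondrial DNA. Dopamine neurons of the substantia nigra fire continuously and have a high energy demand, and inhibitors of complex I such as the active metabolite of MPTP are known to damage them.

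The genes were chosen by symbol, as the single-gene probe sets whose names begin with Nduf followed by a, b, c, s or v, with Uqcr, with Cox followed by 4 to 8 or with Atp5, or are Sdha, Sdhb, Sdhc or Sdhd. The rule reads symbols, the brightest of several probe sets stood for a gene, and the set was taken up with earlier results of these data known. The rule found 87 genes on 148 probe sets, of 17097 genes and 45037 probe sets measured. They comprise 33 genes of complex I, 7 assembly factors of complex I, 4 genes of complex II, 7 of complex III, 19 of complex IV and 17 of complex V. Complex I holds 6 core subunits, 26 accessory subunits and 1 pseudogene, Ndufs5-ps. Ndufa4 and its paralog Ndufa4l2 were counted with complex IV, where the Ndufa4 protein is now known to sit. Subunits encoded in mitochondrial DNA, and some further nuclear genes of the rule, were not analysed here.

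Substantia nigra RNA was measured on 9 Affymetrix arrays from Swiss Webster mice, 3 each after injections of saline, 1 mg/kg methylphenidate (MPH) or 10 mg/kg MPH. MPH blocks the transporters that take up dopamine and noradrenaline. Injections were intraperitoneal, began in juvenile animals, followed a school-week schedule for about 3 months and ended with a drug washout before dissection. The labels give each array as a sample of its own but not how many mice it held, so p-values measure the spread between these arrays. The dose groups are called by their array labels, since the sources used here do not settle which label belongs to which dose. Values are log2 intensities, which bear a correction that levels the replicate numbers across groups, so arrays of the same number are not independent. Across all 9 arrays the median probe set lay between 4.49 and 4.53, and 23 nonspecific control probe sets had a median of 2.93 and a highest mean of 5.07. The next highest control mean was 3.59.

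The label of the tissue was checked against the marker genes of dopamine neurons. Th, the enzyme that starts dopamine synthesis, and Slc6a3, the dopamine transporter, were well above the control probe sets on every array. The 14 dopamine neuron markers measured had a median log2 difference from saline of -0.59 for 1 mg/kg and -0.45 for 10 mg/kg, and 12 of 14 were lower in each at a p that, before adjustment, was at most 0.05. With replicate number fitted as a block (limma), 0 of the 14 passed an adjusted p of 0.05. The smallest adjusted p was 0.316 in 1 mg/kg and 0.329 in 10 mg/kg. Over all probe sets 5.77% and 5.51% were lower at an unadjusted p of 0.05 or less. Without the block 4 of the 14 passed the adjusted p in each, against 0.12% and 0.255% of all probe sets. The p-values of that fit are too small, for the reason given below. In bulk tissue, fewer cells of a type, less RNA per cell and a different share of tissue in the dissection cannot be told apart. Thalamic markers also differed between arrays: the median of the 6 thalamic genes, relative to the saline mean, ran from -0.86 to 0.50 in saline, from 0.65 to 1.19 in 1 mg/kg and from -0.60 to 0.82 in 10 mg/kg. The median of the 9 cortical and hippocampal neuron markers was 1.33 on 10 mg/kg array 1 and between -0.18 and 0.13 on the other 8 arrays.

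Many promoters of these genes carry short motifs of the nuclear respiratory factors and partners, which is why the letters are shown before the values. RefSeq promoters of 300 bases, 250 before and 50 after the gene start, on mouse build GRCm38.p6, were found for 70 of the 87 genes, as 75 promoters. Each motif was searched on both strands. CGCATGCGC, the core bound by NRF1, stood in 10 of 75 of these promoters (13.3%) against 1.75% of all 32851 promoters. CCGGAAG, the core bound by GABP and other ETS factors, stood in 17 of 75 (22.7%) against 8.86%. GCCATCTT, a form of the YY1 site, stood in 11 of 75 (14.7%) against 2.75%. Counted by gene, against the 12563 protein-coding genes measured that had a promoter, the shares were 14.3% against 3.21% for NRF1, 24.3% against 15.5% for GABP and 15.7% against 4.23% for YY1. The promoters of 32 genes held at least 1 of the 3 motifs. A match describes letters and not binding. Stretches of 60 bases before the gene start are shown for complexes I, IV and V with the NRF1 core in capitals:
Ndufa8, chr2:36049339-36049398, minus strand: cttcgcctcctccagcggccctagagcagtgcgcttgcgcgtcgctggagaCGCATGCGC
Cox6a1, chr5:115349086-115349145, minus strand: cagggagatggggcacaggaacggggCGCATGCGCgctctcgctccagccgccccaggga
Atp5g2, chr15:102671055-102671114, minus strand: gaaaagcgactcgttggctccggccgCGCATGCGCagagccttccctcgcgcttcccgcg
Atp5k, chr5:108434415-108434474, minus strand: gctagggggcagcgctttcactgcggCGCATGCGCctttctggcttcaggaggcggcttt

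The GABP core is marked in the same way in promoters of complexes I, II, III and V:
Ndufs3, chr2:90904722-90904781, minus strand: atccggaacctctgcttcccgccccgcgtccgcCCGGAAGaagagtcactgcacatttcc
Sdhd, chr9:50603863-50603922, minus strand: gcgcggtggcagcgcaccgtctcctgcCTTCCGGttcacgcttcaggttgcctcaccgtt
Uqcr11, chr10:80406855-80406914, minus strand: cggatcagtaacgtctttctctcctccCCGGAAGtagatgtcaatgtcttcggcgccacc
Atp5h, chr11:115419925-115419984, minus strand: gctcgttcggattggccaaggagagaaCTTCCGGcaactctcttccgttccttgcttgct

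The YY1 form lay wholly before the start in 1 of the 11 promoters and otherwise at or after it, so only 30 bases around it are shown:
Ndufa9, chr6:126849097-126849126, minus strand: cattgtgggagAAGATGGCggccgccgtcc
Ndufs7, chr10:80249462-80249491, plus strand: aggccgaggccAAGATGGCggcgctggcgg
Atp5pb, chr3:105959248-105959277, minus strand: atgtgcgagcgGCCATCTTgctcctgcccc

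The differences from saline of genes with and without a motif were set side by side, with no test. The 17 genes with the GABP core had a median log2 difference from saline of 0.01 in 1 mg/kg and 0.0093 in 10 mg/kg, against 0.03 and -0.0025 in the 53 without it. The 10 with the NRF1 core had medians of 0.05 and -0.02, against 0.03 and 0.0045 in the 60 without. For the 11 with the YY1 form the medians were 0.05 and -0.0025, against 0.02 and 0.0053. Gabpa, the DNA-binding subunit of GABP, was higher by 0.21 ± 0.07 (SE) in 1 mg/kg and by 0.22 ± 0.07 in 10 mg/kg (limma, adjusted p = 0.418 and 0.441, n = 3 arrays a group), so neither difference passed.

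The 87 genes as a group stayed close to saline in both dose groups. In the 1 mg/kg arrays 54 of 87 were above the saline mean and the median log2 difference was 0.03, with the middle 50% of genes between -0.04 and 0.08. In the 10 mg/kg arrays 44 of 87 were above it and the median was 0.0018. Over all 17097 genes the medians were -0.02 in both comparisons, and over the 1329 genes at a level of 10 or more they were -0.0038 and -0.01. No gene of the 87 passed an adjusted p of 0.05 (limma, replicate number fitted as a block, Benjamini-Hochberg over 45037 probe sets), where 0% of all probe sets passed in either comparison. The smallest adjusted p was 0.378 in 1 mg/kg and 0.387 in 10 mg/kg, both for Cox7b2. The median residual SD was 0.085 for the 87 genes against 0.117 for all probe sets. At a level of 10 or more it was 0.078 for the 69 of the 87 and 0.078 for all 1329 genes. The 95% interval lay within 0.5 of 0 for 81 of the 87 genes in 1 mg/kg and for 84 in 10 mg/kg. It lay within 0.25 for 39 and 49.

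**Figure D1:**
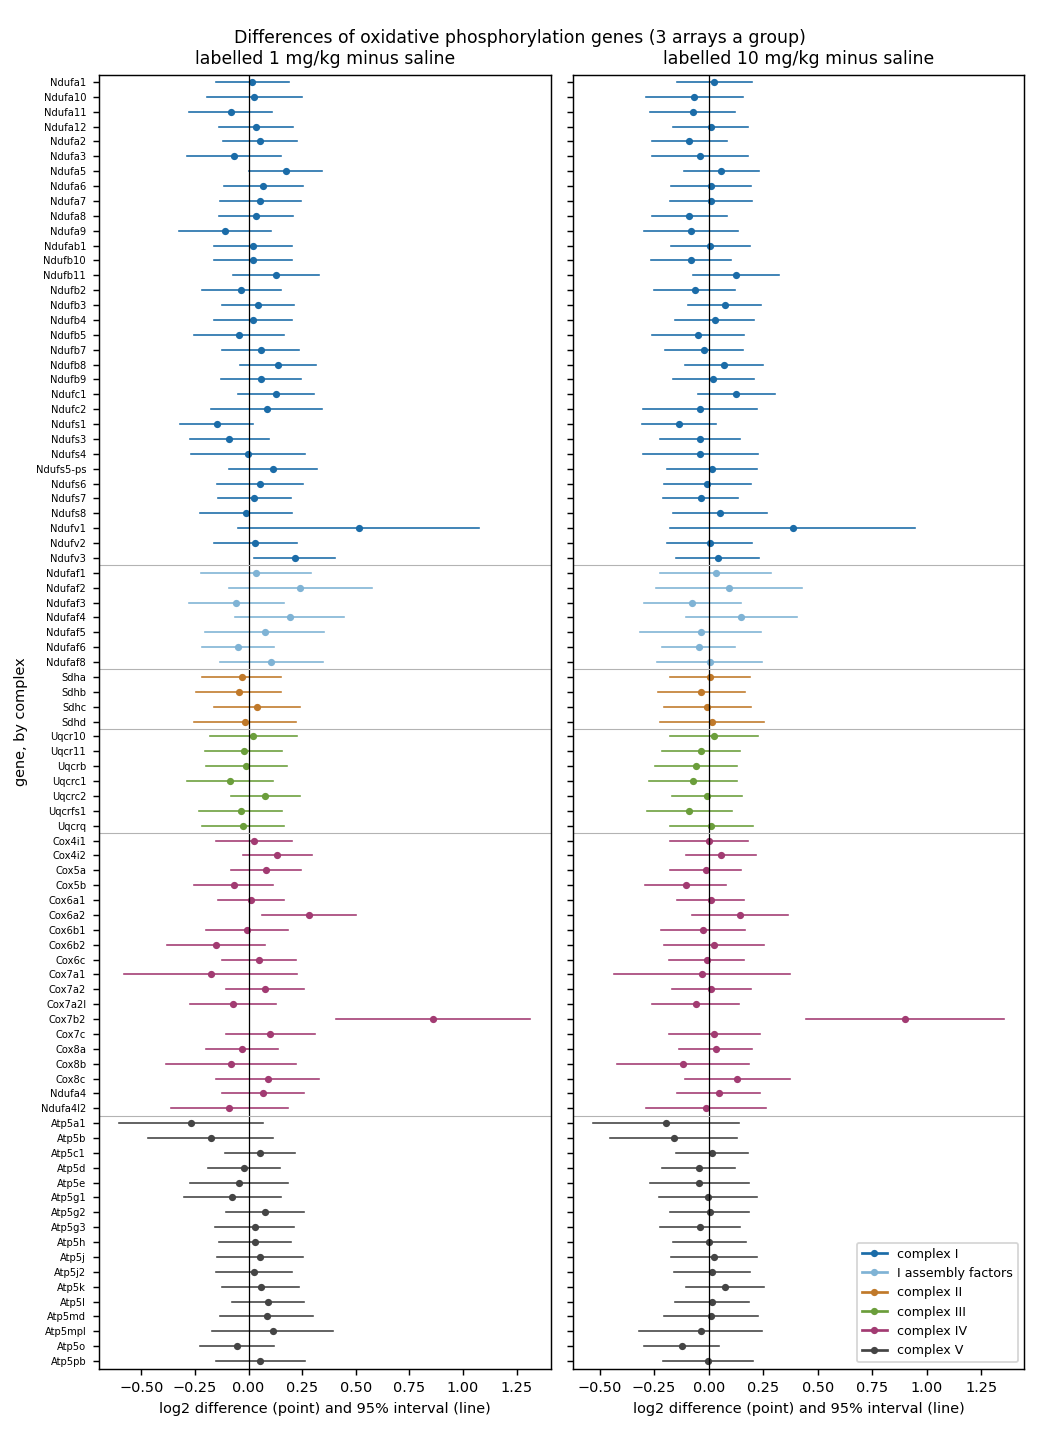
Log2 difference from saline for each of the 87 genes (points) with the limma 95% interval (lines), coloured by complex, with 1 mg/kg on the left and 10 mg/kg on the right. Cox7b2, which read below the highest control probe set on 8 of the 9 arrays, lies at 0.86 and 0.90. Ndufv1 has the widest interval, and the medians of all 87 points are 0.03 and 0.0018.

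Before adjustment, 4 of 87 genes (4.6%), namely Cox7b2, Cox6a2, Ndufv3 and Ndufa5, were higher in 1 mg/kg with p at most 0.05 and 0 were lower, while 4.53% of all probe sets were higher and 5.77% lower. In 10 mg/kg 1 gene (1.15%), Cox7b2, was higher and 0 were lower, against 4.08% and 5.51% of all probe sets. Between the dose groups 0 of 87 were higher or lower at that p, against 3% and 3.39%, and 0% passed the adjusted p. Without the replicate block the genes at that p numbered 8 in 1 mg/kg (9.2%), 2 in 10 mg/kg (2.3%) and 3 between the doses (3.45%), against 18.5%, 17.7% and 12.9% of all probe sets. None passed the adjusted p there either, where 54 of all probe sets (0.12%) passed in 1 mg/kg, 115 (0.255%) in 10 mg/kg and 0% between the doses. Since the values were already levelled by replicate number, that fit counts more independent values than the arrays hold, and its p-values are too small. The lowest adjusted p among the 87 in that fit was 0.0737, for Cox7b2 in 10 mg/kg.

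All 3 arrays of 1 mg/kg lay above all 3 saline arrays for 9 genes (10.3%) and below for 2, against 10.7% and 12.4% of all probe sets. In 10 mg/kg 5 genes lay above and 3 below, against 10.3% and 13.1%. Between the doses 0 genes had the 10 mg/kg arrays above all 1 mg/kg arrays and 9 had them below, against 8.72% and 9.44%. The median difference of 10 mg/kg from 1 mg/kg was -0.03, with 28 of 87 genes positive and a smallest adjusted p of 0.783, and the 95% interval lay within 0.5 of 0 for 85 genes. Without 10 mg/kg replicate 1 that median was 0.0095. The 9 lower genes were Ndufa2, Ndufa5, Ndufa8, Ndufb10 and Ndufv3 of complex I, Uqcrc2 of complex III, Cox5a of complex IV and Atp5l and Atp5o of complex V. Ndufc1, Cox4i2 and Cox7b2 had all 6 MPH arrays above the 3 saline arrays, and Ndufs1 had all 6 below, against 4.15% of all probe sets with all 6 above and 5.8% with all 6 below.

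The arrays of a group differed among themselves. The median of the 87 genes relative to the saline mean was 0.05, -0.07 and 0.02 in saline arrays 1 to 3, 0.02, 0.07 and -0.0021 in the 1 mg/kg arrays and -0.06, 0.03 and 0.01 in the 10 mg/kg arrays. In saline array 2, 78 of 87 genes lay below the saline mean, and in saline array 1, 76 of 87 lay above it. In 10 mg/kg array 1, 70 of 87 lay below, and in 1 mg/kg array 2, 68 lay above. The replicate numbers were levelled across groups before deposit, so a low saline array 2 and a high 1 mg/kg array 2 are not separate observations. The sign of the group medians rested on single arrays. Without saline replicate 2 the medians were -0.03 in 1 mg/kg and -0.05 in 10 mg/kg. Without 1 mg/kg replicate 2 the 1 mg/kg median was -0.01, and with each array centred on its median the 10 mg/kg median was -0.01. Without 10 mg/kg replicate 1, the array with the high cortical markers, the 10 mg/kg median was 0.04. The thalamic marker median was lowest, -0.86, on saline array 2 and high, 1.14, on 1 mg/kg array 2, and its part in the result was not tested.

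**Figure D2:**
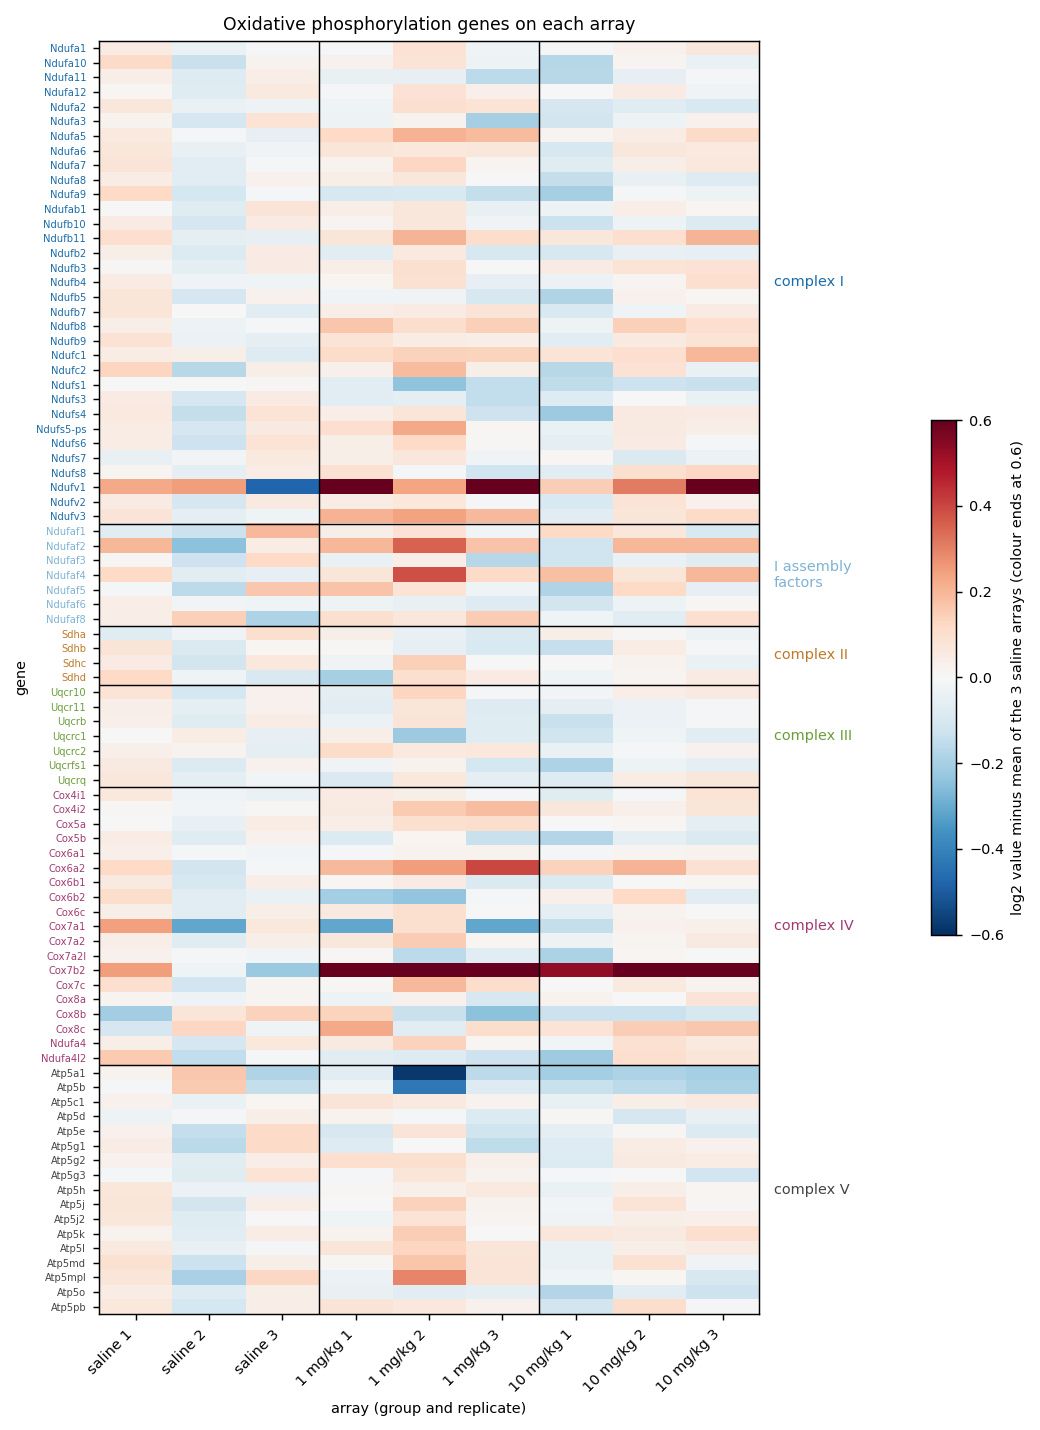
Each row is a gene and each column an array. Colour gives the log2 value minus the mean of the 3 saline arrays, with colours ending at 0.6 in either direction. Columns shift as a whole, with saline 2 and 10 mg/kg 1 mostly blue and 1 mg/kg 2 mostly red, and Cox7b2 and Ndufv1 are the darkest rows.

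Genes of different complexes shifted together across the arrays. For the 81 genes above the control probe sets, the values minus the mean of their replicate number were set against the mean of the others over 9 arrays. The median Pearson r was 0.66, and 60 of 81 genes had r above 0.5. The arrays were normalized together and r describes the members' own shifts on them, so it was not tested. The member medians, relative to the saline mean, were -0.07 on saline array 2, 0.07 on 1 mg/kg array 2 and -0.06 on 10 mg/kg array 1. Over all genes at a level of 10 or more, they were -0.0059, -0.0037 and -0.04. The cause of the member shifts was not tested. Ndufa10 (0.96), Ndufc2 (0.94) and Ndufa7 (0.94), all accessory subunits of complex I, were most like the rest. Atp5b (-0.58), Atp5a1 (-0.51) and Sdha (-0.25) were least like it, and 9 of 81 genes had r below 0.

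**Figure D3:**
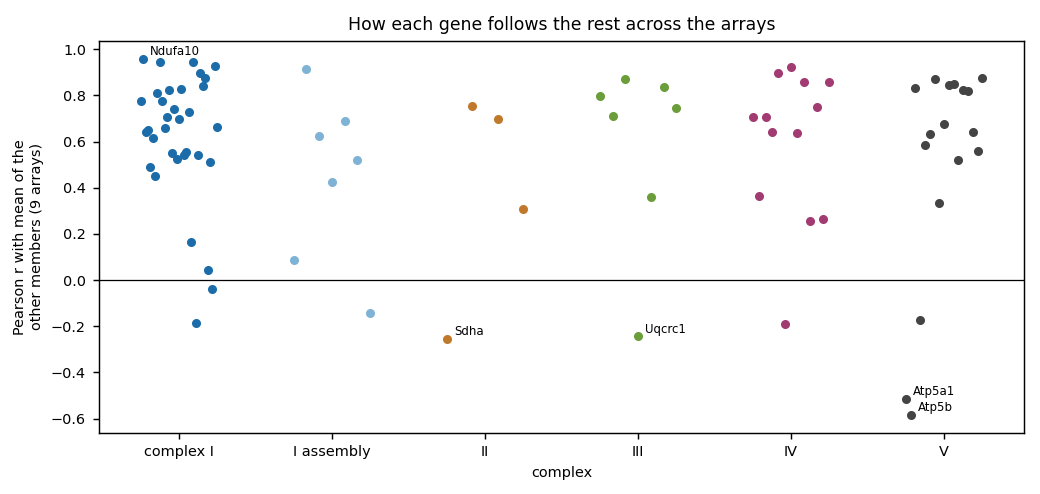
Pearson r over 9 arrays between each of 81 genes and the mean of the others, after subtracting replicate means, with genes grouped by complex on the horizontal axis. Most points lie above 0.5, and Atp5a1 and Atp5b of complex V lie lowest, at -0.51 and -0.58.

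Complex I had a median log2 difference of 0.03 in 1 mg/kg, with 24 of 33 genes positive, and of 0.0055 in 10 mg/kg, with 17 of 33 positive. The 6 core subunits, among them those that carry the flavin and iron-sulfur clusters, had medians of 0.0078 and -0.02. The 26 accessory subunits had 0.04 and 0.00082. Ndufs1, the large iron-sulfur subunit of the electron input arm, read 10.53, 10.54 and 10.54 in saline, 10.48, 10.30 and 10.39 in 1 mg/kg and 10.38, 10.41 and 10.41 in 10 mg/kg. Every MPH array was below every saline array. Its differences were -0.15 (95% interval -0.32 to 0.02, adjusted p = 0.522) and -0.14 (-0.31 to 0.03, adjusted p = 0.574).

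Ndufv1, the NADH-binding core subunit, had the widest spread of the complex. Its brightest probe set read 10.73, 10.75 and 10.03 in saline, 11.15, 10.74 and 11.16 in 1 mg/kg and 10.65, 10.81 and 11.20 in 10 mg/kg. The groups overlapped, saline array 3 was the lowest of all, and the differences of 0.51 (adjusted p = 0.515) and 0.39 (adjusted p = 0.623) were not shared by the other probe set of the gene. That probe set read 10.71, 10.66 and 10.68 in saline, 10.74, 10.56 and 10.56 in 1 mg/kg and 10.57, 10.70 and 10.74 in 10 mg/kg. The remaining cores Ndufv2, Ndufs3, Ndufs7 and Ndufs8 had differences between -0.09 and 0.05.

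Ndufv3, an accessory subunit of the NADH-binding module, read 11.73, 11.59 and 11.63 in saline, 11.86, 11.89 and 11.84 in 1 mg/kg and 11.59, 11.72 and 11.76 in 10 mg/kg. The 1 mg/kg arrays were above all others and the 10 mg/kg arrays overlapped saline. The difference was 0.21 ± 0.08 (SE) in 1 mg/kg (adjusted p = 0.452) and 0.04 in 10 mg/kg, and the 10 mg/kg arrays were lower than the 1 mg/kg arrays by a fitted -0.17 (95% interval -0.36 to 0.02). Ndufa5, an accessory subunit of the peripheral arm, read 10.98, 10.92 and 10.88 in saline and 11.05, 11.13 and 11.11 in 1 mg/kg, a difference of 0.17 ± 0.07 (adjusted p = 0.485), and 10.94, 10.97 and 11.04 in 10 mg/kg. Ndufc1, a small subunit of the membrane arm, read 11.75, 11.73 and 11.62 in saline, 11.81, 11.84 and 11.83 in 1 mg/kg and 11.78, 11.80 and 11.90 in 10 mg/kg, with differences of 0.13 in each (adjusted p = 0.588 and 0.61).

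The 7 assembly factors, proteins that help build complex I but are not part of it, had medians of 0.08 and 0.0037. Ndufaf2 was at 8.47 ± 0.23 (SD) in saline, 8.71 ± 0.10 in 1 mg/kg and 8.56 ± 0.18 in 10 mg/kg. Ndufaf4 was at 8.49 ± 0.10, 8.68 ± 0.17 and 8.64 ± 0.07. The groups of both genes overlapped, and neither difference from saline passed (adjusted p = 0.589 and 0.572 in 1 mg/kg).

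No gene of complexes II and III passed, and their intervals bound the difference. Sdha and Sdhb, the flavin and iron-sulfur subunits of succinate dehydrogenase, and the membrane anchors Sdhc and Sdhd differed from saline by -0.05 to 0.04 in 1 mg/kg and by -0.03 to 0.01 in 10 mg/kg. All 4 intervals of complex II lay within 0.5 of 0 in each comparison, as did all 7 of complex III. Uqcrc1 and Uqcrc2, the core proteins of complex III, differed by -0.09 and 0.08 in 1 mg/kg and by -0.07 and -0.0070 in 10 mg/kg. Uqcrfs1, the Rieske iron-sulfur protein, differed by -0.04 and -0.09. The complex III medians were -0.02 and -0.04.

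In complex IV, Cox7b2, an isoform of subunit VIIb known from testis, read 4.22, 3.95 and 3.75 in saline, 4.80, 4.65 and 5.05 in 1 mg/kg and 4.50, 4.98 and 5.13 in 10 mg/kg. All 6 MPH arrays were above the 3 saline arrays. The fitted log2 difference was 0.86 (95% interval 0.41 to 1.31) in 1 mg/kg and 0.90 (0.45 to 1.35) in 10 mg/kg, with unadjusted p of 0.00258 and 0.00198 and adjusted p of 0.378 and 0.387 by limma. However, 8 of the 9 arrays, among them all saline and all 1 mg/kg arrays, were below 5.07, the highest nonspecific control. That value came from 1 control probe set, and the next highest control mean was 3.59, below every Cox7b2 array. The signal is dim and the gene has 1 probe set, so no fold is given. Between the doses the difference was 0.04 (-0.41 to 0.49). The 120 bases before its start, shown because every MPH array read above every saline array, hold none of the 3 motifs:
Cox7b2, chr5:71548206-71548325, minus strand: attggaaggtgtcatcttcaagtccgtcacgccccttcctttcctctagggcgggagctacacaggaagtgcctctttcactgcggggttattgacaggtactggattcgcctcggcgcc

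Isoforms of complex IV used by other tissues were mostly dim, and 6 of the 87 genes, all of them such isoforms, were at or below the highest control. Cox6a2, the heart and skeletal muscle form of subunit VIa, read 4.41, 4.17 and 4.28 in saline, 4.48, 4.54 and 4.69 in 1 mg/kg and 4.43, 4.49 and 4.38 in 10 mg/kg. Its difference was 0.28 ± 0.09 (SE) in 1 mg/kg (adjusted p = 0.423) and 0.14 in 10 mg/kg (adjusted p = 0.635). The 5 striated muscle markers measured had medians of 0.03 and -0.0067, and their mean level ranged over 4.56 to 4.63 in saline, 4.54 to 4.64 in 1 mg/kg and 4.53 to 4.62 in 10 mg/kg. Cox4i2, the oxygen-responsive form of subunit IV, was at 3.26 ± 0.01 (SD) in saline, 3.39 ± 0.07 in 1 mg/kg and 3.32 ± 0.02 in 10 mg/kg. Cox7a1, Cox6b2, Cox8b, Cox8c and Ndufa4l2 differed by -0.18 to 0.13. The general forms, Cox4i1, Cox5a, Cox5b, Cox6a1, Cox6b1, Cox6c, Cox7a2, Cox7c, Cox8a and Ndufa4, differed by -0.07 to 0.10 in 1 mg/kg and -0.11 to 0.05 in 10 mg/kg, with medians of 0.04 and 0.0056.

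Complex V is described by its F1 part, which faces the matrix, and by its other stalk and membrane parts, with no test between them. The F1 genes here include Atp5c1 and Atp5d of the central stalk. The 5 F1 genes had medians of -0.04 and -0.05 with 1 of 5 positive in each. The 12 other stalk and membrane genes had 0.05 and 0.0038 with 10 and 7 positive. Atp5a1, the alpha subunit of F1, read 11.85, 11.99 and 11.65 in saline, 11.76, 11.25 and 11.67 in 1 mg/kg and 11.63, 11.65 and 11.63 in 10 mg/kg. The 10 mg/kg arrays lay below all saline arrays, but 1 mg/kg overlapped saline and its array 2 was lowest of all. Atp5b, the catalytic beta subunit, read 12.28, 12.44 and 12.14 in saline, 12.26, 11.86 and 12.21 in 1 mg/kg and 12.15, 12.13 and 12.10 in 10 mg/kg, again lowest on 1 mg/kg array 2. The differences from saline were -0.27 and -0.19 for Atp5a1 (adjusted p = 0.558 and 0.673) and -0.18 and -0.16 for Atp5b (adjusted p = 0.65 and 0.689). Atp5o, which links F1 to the stator, differed by -0.06 and -0.12. Atp5g1, Atp5g2 and Atp5g3, which encode the same mature c subunit of the rotating ring, differed by -0.08, 0.08 and 0.03 in 1 mg/kg.

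**Figure D4:**
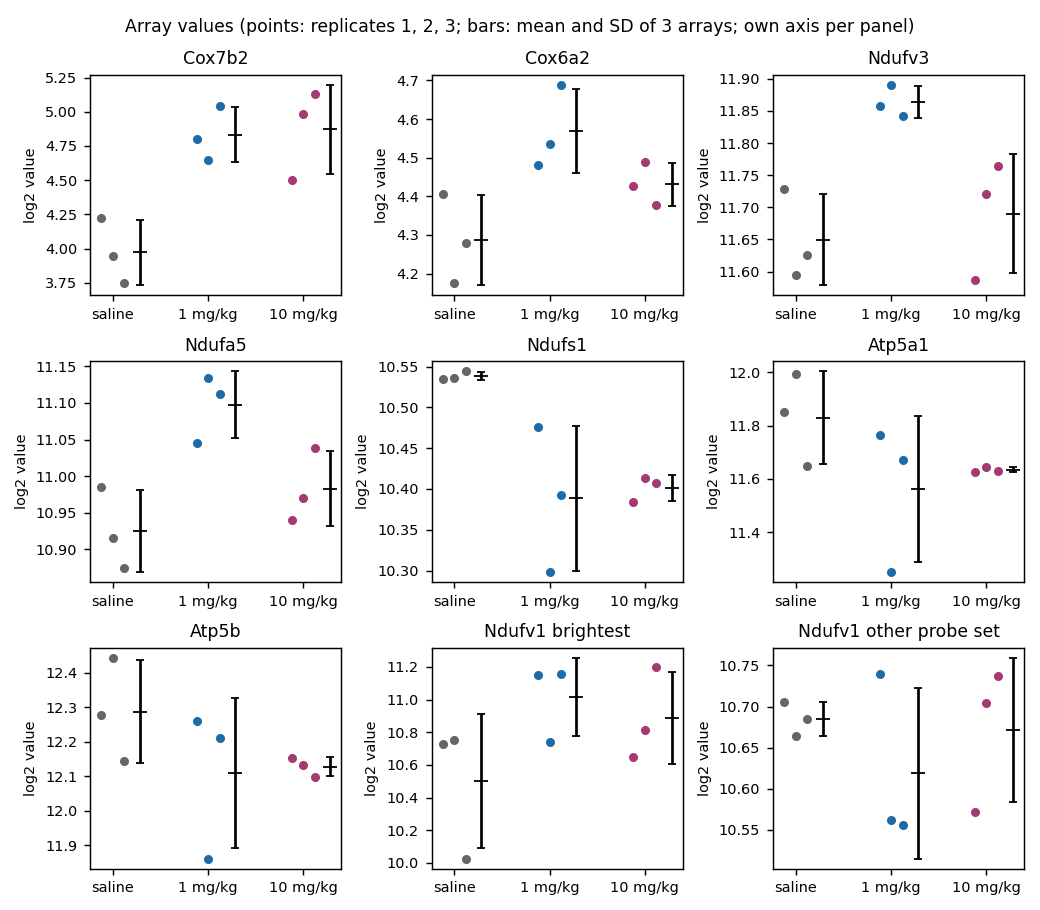
Log2 values of 7 genes and of the brightest and the other probe set of Ndufv1, for the saline, 1 mg/kg and 10 mg/kg arrays (3 each), with each panel on its own axis. Points are arrays and bars are the mean and SD of 3 arrays. Cox7b2 is separate in both MPH groups, Ndufv1 differs between its probe sets, and Atp5a1 and Atp5b are lowest on 1 mg/kg array 2.

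Of the 41 genes with several probe sets, 37 had at least 2 above the control level. Their probe sets differed in sign for 10 genes in 1 mg/kg and 11 in 10 mg/kg, and by more than 0.25 in 1 gene each. Of the 61 probe sets not used, 0 passed the adjusted p in either comparison. Before adjustment 2 were higher and 1 lower (p at most 0.05) in 1 mg/kg, and 1 was higher and 2 lower in 10 mg/kg. Of all probe sets, 4.53% were higher and 5.77% lower in 1 mg/kg, and 4.08% and 5.51% in 10 mg/kg.

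Other gene lists of energy metabolism are given beside the complexes. The glycolysis list had 1 of 13 genes positive in each comparison and medians of -0.12 and -0.10. Before adjustment 3 and 1 of the 13 were lower (p at most 0.05), against 5.77% and 5.51% of all probe sets. Pfkp and Pfkl, phosphofructokinase subunits, differed by -0.25 and -0.26 in 1 mg/kg (adjusted p = 0.418 and 0.441), and Pfkm and Pkm by -0.20 and -0.33 in 10 mg/kg (adjusted p = 0.494 and 0.528). The pyruvate dehydrogenase and citric acid cycle list had 1 and 3 of 15 genes positive and medians of -0.06 and -0.05. Ogdh, which oxidizes alpha-ketoglutarate, differed by -0.33 and -0.28 (adjusted p = 0.378 and 0.424). Electron carriers and coenzyme Q synthesis had medians of -0.06 and -0.08 over 11 genes. Assembly factors of complexes I to V had -0.03 and -0.05 over 42. Before adjustment (p at most 0.05) 2 of the 42 were higher and 2 lower in 1 mg/kg. In 10 mg/kg 1 was higher and 4 lower. The shares of all probe sets were 4.53% higher and 5.77% lower in 1 mg/kg, and 4.08% and 5.51% in 10 mg/kg. Among the lower assembly factors, Foxred1 differed by -0.51 and -0.54 (adjusted p = 0.419 and 0.441). The import list had medians of -0.05 and -0.01 over 15 genes, with Timm50, a receptor of the inner membrane import channel, at -0.28 and -0.21 (adjusted p = 0.399 and 0.484). The adenine nucleotide and phosphate carrier list had -0.01 and -0.05 over 9. The regulators of mitochondrial gene expression had 0.09 and 0.0075 over 14 genes. No gene of these lists passed the adjusted p.

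**Figure D5:**
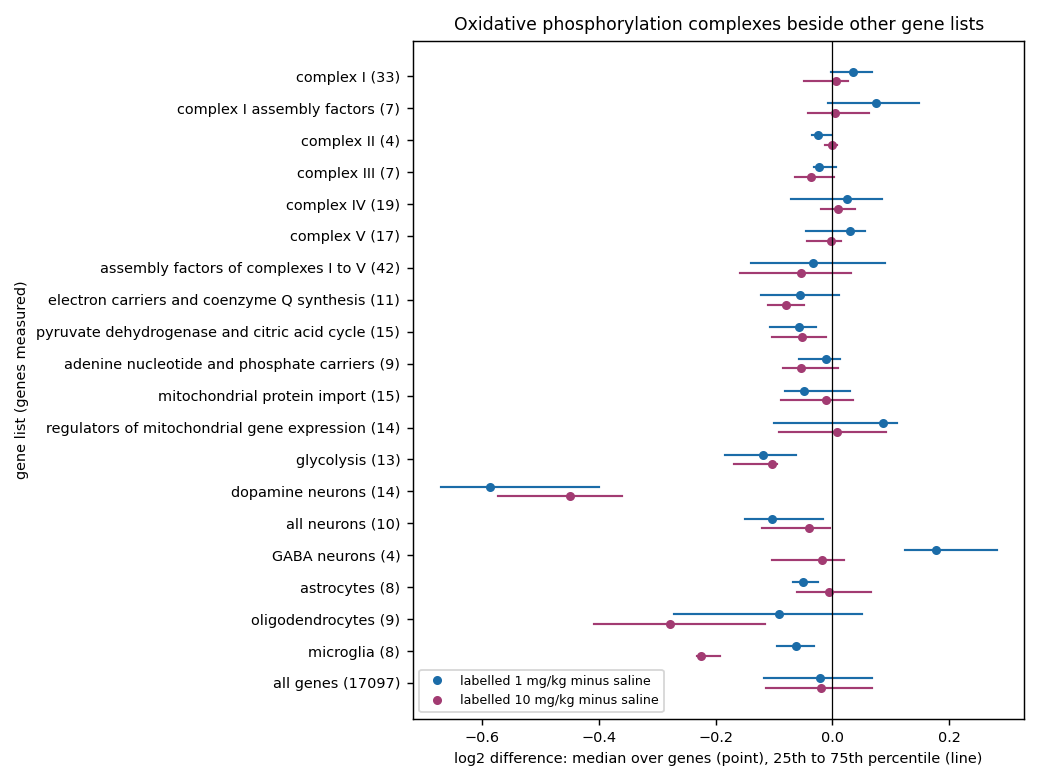
Median log2 difference from saline (points) and the 25th to 75th percentile (lines) for each list, with the number of genes measured in brackets, for 1 mg/kg and 10 mg/kg. The complexes lie within 0.08 of 0, glycolysis lies at -0.12 and -0.10, and dopamine neuron markers lie at -0.59 and -0.45.

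Marker lists were read beside these values and their part in them was not tested. The all-neuron list had medians of -0.10 and -0.04, the astrocyte list -0.05 and -0.0057, the oligodendrocyte list -0.09 and -0.28, the microglia list -0.06 and -0.22 and the GABA neuron list 0.18 and -0.02. The list of endothelial cells and pericytes had 0.02 and -0.0059, the serotonin neuron list -1.90 and -1.60 over 3 genes, and the cortical and hippocampal list -0.02 and 0.51. On the saline arrays alone the serotonin median, relative to the saline mean, ran from -1.28 to 1.08. The 3' minus 5' difference of the Actb control, a measure of RNA length and labelling, was 0.882 to 0.934 in saline and 1.03 to 1.19 in the 6 MPH arrays, while that of Gapdh was 0.231 to 0.387 and 0.224 to 0.409.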

How the data were processed

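The authors measured substantia nigra RNA of Swiss Webster mice on 9 Affymetrix arrays (3 groups of 3) and deposited RMA log2 intensity values for every probe set. Their methods also name a correction for the batch of the replicates, and the deposited values bear it: the median ratio of the mean square between replicate numbers to the residual mean square was 0.073 over all probe sets, against 0.828 for the median of the F distribution, and deviations of same-numbered arrays correlated between -0.626 and -0.132. Tool versions are not given in the sources used here. The 104 control probe sets were left out and 45037 were tested. Single-gene names came from the platform annotation (551 probe sets name several genes, 15588 none), and all 87 members were found by identifier. Each probe set was fitted with limma 3.58.1 in R 4.3.3 on group and replicate number, with Benjamini-Hochberg adjustment over all probe sets and a threshold of 0.05. The fit was tested on simulated data with independent noise. These lacked the levelling of replicate numbers, so that test does not show how the fit behaves under it. The brightest probe set stood for a gene. Named genes were, per complex, those with the smallest p in each comparison, the cores, the isoform pairs and the brightest and dimmest. Alternatives were no block, other samples, scaling, filters, weights and each array left out. Members and gene lists were chosen with earlier results of these data known. The number of arrays limits the precision. Promoters and motifs came from RefSeq and were read in Python 3.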

Additional observations from a re-analysis of the deposited data

How the results depend on the processing

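Across 17 alternatives, 0 of the 2535 differences computed for the 50 named genes passed an adjusted p of 0.05, and the lowest adjusted p was 0.0737. The sign changed in 214, and in 13 of these the difference exceeded its standard error under at least 1 of the settings, which is called a reversal here. Without the replicate block the genes at an unadjusted p of 0.05 or less numbered 7 higher and 1 lower in 1 mg/kg. Of all probe sets, 8.21% were higher and 10.3% lower. In 10 mg/kg there were 2 such genes, of which 1 was lower, against 17.7% of all probe sets, with 9.9% lower. Between the doses 3 were lower, against 6.83%. That fit changed no call at the adjusted p. With probe sets above the median level only, 2 were higher in 1 mg/kg, against 4.66%. With an intensity trend and robust moderation 1 was lower in 1 mg/kg, 1 in 10 mg/kg and 2 between the doses, against 5.69%, 5.61% and 3.51%. Counts of higher genes are not listed for that setting. Leaving out 1 array at a time gave 1 to 5 higher and 0 to 1 lower in 1 mg/kg, 1 to 2 higher in 10 mg/kg and 0 to 1 higher between the doses, against 2.69% to 5.56% higher and 3.2% to 6.69% lower, 3.21% to 4.58% higher and 2.5% to 3.25% higher. An array left out had already entered the upstream correction of the others. The medians over the 87 genes ran from -0.0298 to 0.0669 in 1 mg/kg and from -0.0491 to 0.0373 in 10 mg/kg, both lowest without saline replicate 2. With the mean of all probe sets of a gene, Atp5g1 was at 0.13 in 1 mg/kg and -0.19 between the doses, and Ndufaf8 at -0.0075 in 1 mg/kg. With 1 array left out at a time, the 1 mg/kg difference ran from -0.414 to 0.00856 for Cox7a1, from -0.0215 to 0.204 for Ndufaf8, from -0.0889 to 0.0985 for Sdhd and from -0.158 to 0.00215 for Uqcrc1. The 10 mg/kg difference ran from -0.119 to 0.132 for Ndufa4l2 and from -0.124 to 0.101 for Ndufaf8. Between the doses it ran from -0.126 to 0.174 for Atp5a1, from -0.148 to 0.111 for Atp5b, from -0.157 to 0.125 for Cox8b and from -0.14 to 0.0934 for Ndufaf4, with Atp5a1 and Atp5b lowest without 1 mg/kg replicate 2. The causes were not tested.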
